A study of Mus musculus with 16 samples.

Results

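The miR-181 family is a group of microRNAs made from 6 mouse hairpins and described here through 7 of their strands: miR-181a-5p, miR-181b-5p, miR-181c-5p, miR-181d-5p, miR-181a-1-3p, miR-181a-2-3p and miR-181c-3p. Members were taken by name, after marks for mismatches were removed and hairpin copy numbers merged, so 11 of the 2510 listed names gave 7 of 2274 miRNA names. Small RNA was sequenced from C2C12, mouse myoblasts that form myotubes in low serum, and the growth protocol describes the cells used as PAX7 NEG. Control cells carry the genotype label Wild-type and came as population 1 and population 2, while the triple knockout (tKO) lacks miR-206 and both hairpins of miR-1a (miR-1a-1, miR-1a-2) and came as clone 1 and clone 2. Each line was sampled in growth medium with 20% FBS at about 80% confluency (GM) and after 3 days in 2% horse serum (DM3), with 2 libraries per line and medium numbered 1 and 2, so that the 16 libraries form 4 groups of 4. A group therefore rests on 2 lines, and the labels do not say how the numbered libraries of a line were separated, so the p-values measure the spread between these libraries.

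A microRNA hairpin is cut into a 5p and a 3p strand, of which one, the guide, is usually kept in an Argonaute protein and the other, the passenger, is mostly degraded. The guide pairs with target messages mainly through its seed, bases 2 to 8 counted from the 5′ end, so strands with one seed are expected to share many targets. In muscle, miR-181 is known as a family that rises when myoblasts differentiate and that represses the homeobox gene Hox-A11, and it is also studied in lymphocytes, where miR-181a tunes T cell receptor signalling.

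The mature sequences of the 4 guide strands are shown because one seed, in capitals, joins them and few bases outside it tell their reads apart (RefSeq, GRCm38.p6, where all 7 members were found).
miR-181a-5p: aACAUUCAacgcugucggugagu
miR-181b-5p: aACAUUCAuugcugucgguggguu
miR-181c-5p: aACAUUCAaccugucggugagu
miR-181d-5p: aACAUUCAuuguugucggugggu
Among the 1679 mature mouse names in that table, these 4 alone have the seed ACAUUCA. Counted from the 5′ end, the guides miR-181a-5p and miR-181b-5p differ at A9U, C10U and A21G, and miR-181b-5p differs from miR-181d-5p by C12U and by its longer 3′ end. In miR-181c-5p, 1 base of miR-181a-5p, the G at position 11, is missing.

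The 3p strands from the hairpins of miR-181a and miR-181c are shown because 2 seeds divide them.
miR-181a-1-3p: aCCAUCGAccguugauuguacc
miR-181a-2-3p: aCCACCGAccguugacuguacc
miR-181c-3p: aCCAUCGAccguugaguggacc
The seed CCAUCGA is shared by miR-181a-1-3p and miR-181c-3p, and CCACCGA belongs to miR-181a-2-3p alone. Between the 3p strands of the 2 miR-181a hairpins the substitutions are U5C and U16C, so these reads tell which of the hairpins was cut, which the identical 5p strands cannot do.

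The hairpins lie in 3 pairs (GENCODE M21, GRCm38). Mir181a-1 (ENSMUSG00000065565.1, chr1:137966455-137966541, plus strand) and Mir181b-1 (ENSMUSG00000065458.1, chr1:137966639-137966718) lie 97 bases apart, in an exon of the lincRNA gene A430106G13Rik on the same strand. Mir181a-2 (ENSMUSG00000065423.1, chr2:38852735-38852810, plus strand) and Mir181b-2 (ENSMUSG00000065578.1, chr2:38853830-38853918) lie 1019 bases apart, within an intron of Nr6a1, a nuclear receptor gene on the opposite strand. Mir181d (ENSMUSG00000076338.1, chr8:84178716-84178787, minus strand) and Mir181c (ENSMUSG00000065483.2, chr8:84178873-84178961) lie 85 bases apart, in an intron of the germ cell gene Nanos3 on the same strand. The strands from one pair can thus come from one primary transcript.

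Libraries held 112792 to 6543570 listed reads. The library of tKO clone 1 replicate 1 in DM3 stood apart, with 112792 reads, of which 45.1% matched a mouse hairpin and 18.9% were shorter than 18 nt. The deleted miR-206-3p was at 837 to 1466 CPM (counts scaled to a common library total, the usual unit of abundance in small RNA sequencing) in the controls of GM and at 19951 to 57442 in those of DM3. In the tKO groups it was at 0.808 to 15.5 in GM and 0.960 to 70.9 in DM3. The 6 listed myotube miRNAs summed to 904 to 1523 CPM in the controls of GM and 23112 to 59672 in those of DM3. The tKO libraries had sums of 45.2 to 74.9 in GM and 156 to 1082 in DM3. Of the markers of other cell types, the blood, endothelial and epithelial lists summed to at most 16.3, 25.3 and 17.4 CPM in a library and the liver miRNA miR-122-5p to 75.5, miR-142a-5p and miR-124-3p were at 0, and the smooth muscle miRNAs miR-143-3p and miR-145a-5p summed to 18574 to 60569. These values were scaled to the library total alone.

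Most of the family's reads were miR-181a-5p and miR-181b-5p. Levels of the members are given as CPM after TMM scaling, a library scaling that assumes most miRNAs do not change. Over the 16 libraries the mean level was 2995 for miR-181a-5p, 1448 for miR-181b-5p, 150.8 for miR-181d-5p, 58.1 for miR-181a-1-3p, 37.6 for miR-181c-3p, 18.5 for miR-181a-2-3p and 13.7 for miR-181c-5p. For miR-181c-3p 1 library held 248, and the mean of the other 15 was 23.6; most reads under that name were of 13 to 15 nt. The order held within libraries at its upper end, where miR-181a-5p exceeded miR-181b-5p in 15 of 16, miR-181b-5p exceeded miR-181d-5p in 16 of 16 and miR-181d-5p exceeded miR-181a-1-3p in 15 of 16. At its lower end the neighbours could not be ordered: miR-181c-3p exceeded miR-181a-2-3p in 10 of 16 libraries and miR-181a-2-3p exceeded miR-181c-5p in 9 of 16. By reads, the totals ran from 111775 for miR-181a-5p to 440 for miR-181c-5p, and in single libraries miR-181c-5p had 2 to 99 reads, so its levels rest on few counts. The 7 strands together made up 0.109% to 0.754% of the listed reads of a library.

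The guides miR-181a-5p and miR-181b-5p were lower in tKO clone 1 than in tKO clone 2 over both media. Summed over the 7 members, the level in clone 1 was 1395 and 2134 in GM and 1539.8 and 1684 in DM3, a mean of 1688 ± 320 (SD, n = 4), and in clone 2 it was 4217 and 6252 in GM and 6487 and 5101 in DM3, a mean of 5514 ± 1056 (SD, n = 4). Clone 1 was below clone 2 in 4 of 4 pairs of libraries with the same medium and number, at 0.237 to 0.341 of its level. Control population 1 ranged from 4199 to 6100.4 and population 2 from 5711 to 6728, and population 1 was below population 2 in 3 of 4 such pairs, at 0.715 to 1.07 of its level. In miR-181b-5p, miR-181d-5p and miR-181a-1-3p population 1 was the lower in 4 of 4 pairs. In the summed level clone 2 lay in the range of the controls and clone 1 below every other library. Within one medium, with 2 libraries a clone, no member was called: in GM 4 of 807 names were called (0.496%) and the lowest adjusted p of a member was 0.0542, and in DM3 1 name was called (0.124%) and the lowest was 0.117 (edgeR). In RNA of whole cultures, fewer cells that make a miRNA and less of it per cell cannot be told apart.

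**Figure D1:**
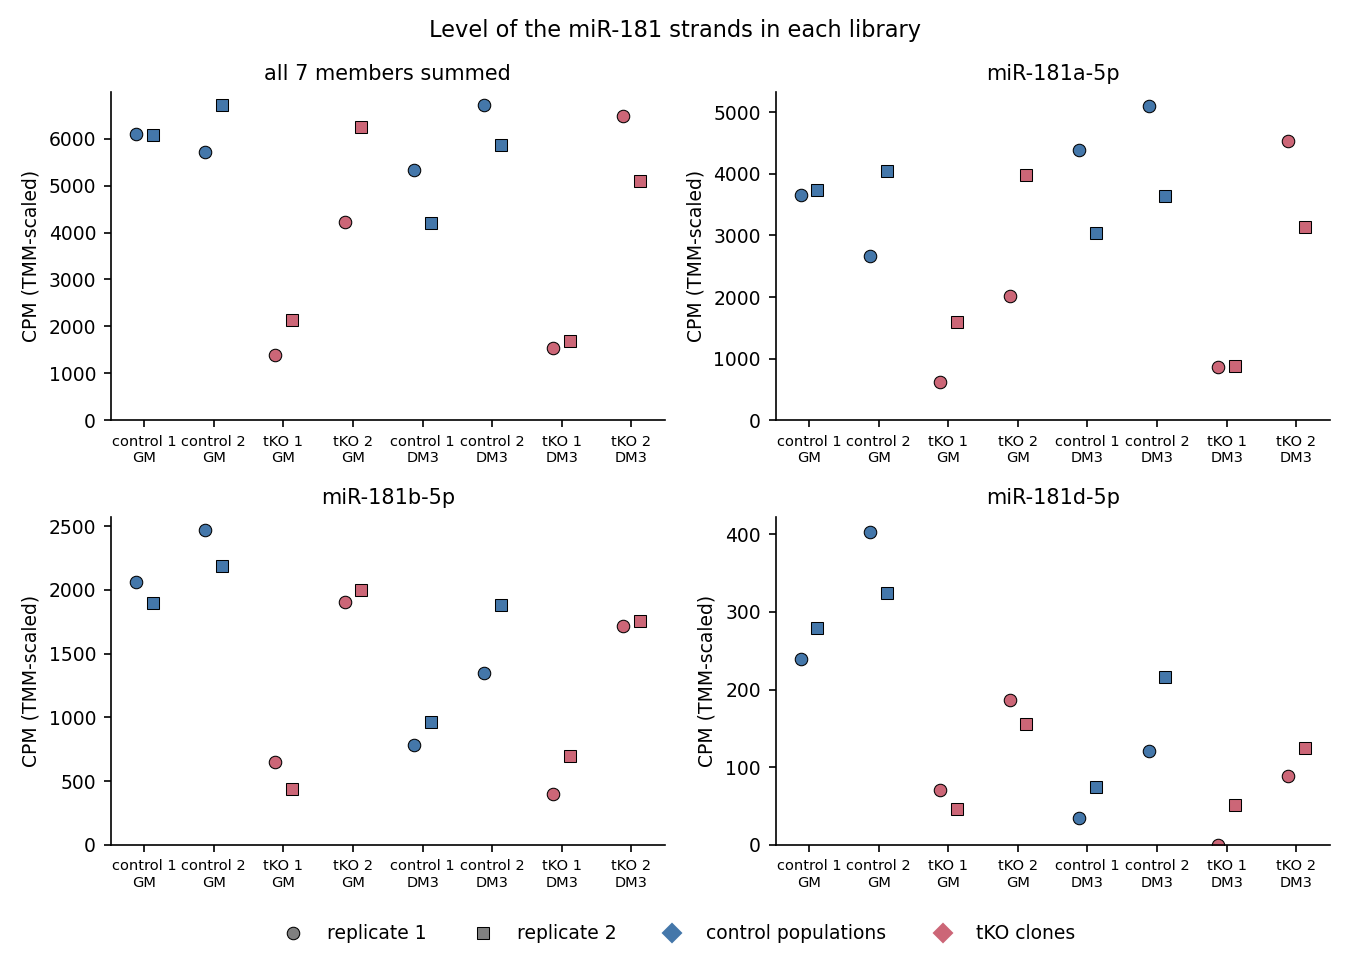
Level of the 7 members summed and of miR-181a-5p, miR-181b-5p and miR-181d-5p in each of the 16 libraries, in TMM-scaled CPM on a linear axis from 0 (circles replicate 1, squares replicate 2, blue control populations, red tKO clones). The 4 libraries of tKO clone 1 sit lowest for the sum, between 1395 and 2134.

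For miR-181a-5p, the most read guide, clone 1 had 619.9 and 1598 in GM and 870.3 and 881 in DM3, and clone 2 had 2016 and 3974 in GM and 4539 and 3134 in DM3. After TMM scaling no library of clone 1 reached the lowest library of clone 2. By library total alone the clones overlapped, with 1923 CPM in clone 1 replicate 2 and 1722 in clone 2 replicate 1, both in GM. The log2 fold change of clone 1 over clone 2, over both media, was -1.78 (SE 0.34, adjusted p = 0.0127, quasi-likelihood F test of edgeR, Benjamini-Hochberg adjusted over the 807 names tested). For miR-181b-5p, clone 1 had 649 and 440.4 in GM and 395 and 694 in DM3, and clone 2 had 1903 and 1999 in GM and 1718 and 1755 in DM3. Again the clones did not overlap, and the log2 fold change was -1.75 (SE 0.28, adjusted p = 0.00326, same test). These comparisons of lines were added after the data had been seen.

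Among the 807 names, 11 were called between the clones (1.36%), of which 2 were members, and the median log2 fold change over all names was 0.25 against -1.52 over the members. The unadjusted p was under 0.05 for 126 names and 4 members. After TMM scaling the clones did not overlap in miR-181a-5p, miR-181b-5p, miR-181d-5p and miR-181a-1-3p. Over all 807 names this held for 42 (5.2%). The less read guide miR-181d-5p had 70.3, 45.8, 0 and 51.7 in clone 1 and 187, 155, 88.4 and 125 in clone 2, with a log2 fold change of -1.62 (SE 0.52, adjusted p = 0.180, edgeR). Its 0 came from the library with 112792 reads, where a count of 0 allows up to 26.6 CPM before scaling. The passenger miR-181a-1-3p had 36.2, 19.5, 13.4 and 27.8 in clone 1 and 74.1, 79.4, 76.9 and 60.1 in clone 2, with a log2 fold change of -1.52 (SE 0.38, adjusted p = 0.0679, edgeR). Neither passed the threshold. With a replicate block miR-181a-1-3p did, at -1.51 (adjusted p = 0.0412, edgeR, 2.48% of all names called), and over 21 alternative settings it was called in 4. For miR-181a-2-3p the log2 fold change was -0.98 and for miR-181c-5p -0.93, with adjusted p of 0.320 and 0.414 in the edgeR test, and their libraries overlapped.

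Only miR-181c-3p had a positive value among the 7 members, at 1.37 (SE 0.68, adjusted p = 0.330, edgeR), and it was lower in clone 1 in 0 of 4 pairs. Without clone 1 replicate 1 in DM3 it was -0.17, while miR-181a-5p was at -1.83 (adjusted p = 0.0141) and miR-181b-5p at -1.61 (adjusted p = 0.0232) in the same edgeR test. Without clone 1 replicate 2 in DM3, where the replicate left in that clone and medium is the library that stood apart, 90 of 843 names (10.7%) and 6 members were called. That library has no read of miR-181d-5p or miR-181a-2-3p, whose log2 fold changes went to -6.22 and -4.68. Over 21 alternative settings miR-181b-5p was called in 21, at -2.03 to -1.42, and miR-181a-5p in 20, at -2.22 to -1.39. The exception was scaling by total counts, with -1.47 and an adjusted p of 0.105 for miR-181a-5p (edgeR).

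Library quality varied more among the libraries of clone 1. In clone 1 the share of reads that matched a hairpin was 45.1% to 88.5% and in clone 2 83.2% to 88%, and the share under 18 nt was 2.00% to 18.9% against 2.34% to 4.38%. Counting only reads that match a hairpin, 14 of 396 names (3.54%) and 3 members were called by edgeR. These were miR-181a-5p at -1.39 (adjusted p = 0.0293), miR-181b-5p at -1.42 (adjusted p = 0.00123) and miR-181a-1-3p at -1.28 (adjusted p = 0.0256). The myotube miRNAs summed to 156 and 541 CPM in the DM3 libraries of clone 1 and to 385 and 1082 in those of clone 2, and in GM to 45.2 to 70.9 and 52.2 to 74.9. The endothelial marker was at 17.7 and 19.2 in DM3 in clone 1 and 2.71 and 8.14 in clone 2, without overlap, while in GM its values overlapped. The part of these markers in the difference between the clones was not tested.

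Between control population 1 and population 2 no name and no member was called by edgeR (0%), with 32 names and 0 members at an unadjusted p under 0.05. No member separated the populations, where 10 of 807 names did (1.24%). The log2 fold changes of the members ran from -1.05 for miR-181d-5p to 0.07 for miR-181a-2-3p. When the difference between the clones was set against that between the populations, 1 name was called (0.124%), which was no member. In that test miR-181a-5p had a log2 fold change of -1.73 (SE 0.47, adjusted p = 0.308, edgeR) and miR-181b-5p -1.19 (SE 0.39, adjusted p = 0.460, edgeR). Both had an unadjusted p under 0.05, as had 58 of the 807 names. The clone difference is therefore not shown to exceed the difference between the control populations.

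No member was called between tKO and control in GM, where 9 of 807 names were called (1.12%). For miR-181a-5p control GM held 3665 and 3734 in population 1 and 2666 and 4050.1 in population 2, against the tKO values given for the clones. The groups overlapped, and the log2 fold change of tKO over control was -0.78 (SE 0.51, adjusted p = 0.848, edgeR). For miR-181b-5p control GM held 2063, 1900.4, 2473 and 2188, and the log2 fold change was -0.79 (SE 0.49, adjusted p = 0.832, edgeR). With a replicate block and a line block miR-181b-5p was called, at -1.07 (adjusted p = 0.0218, edgeR), as were 27 of 807 names (3.35%). That fit takes the spread between the lines of a genotype out of the error. With the replicates of each line summed no member was called, beside 10 of 1214 names (0.824%). Clone 2, at 1903 and 1999, lay at the lower end of the control values, and clone 1, at 649 and 440.4, below them.

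The lowest log2 fold changes in GM were those of miR-181d-5p and miR-181a-2-3p. Control GM held 239, 279, 403 and 324 of miR-181d-5p against 45.8 to 187 in tKO GM, with no overlap and a log2 fold change of -1.44 (SE 0.65, adjusted p = 0.533, edgeR). The passenger miR-181a-2-3p had 45.3, 31.0, 28.7 and 29.6 in control GM and 4.13, 5.94, 27.3 and 16.4 in tKO GM, also with no overlap, at -1.28 (SE 0.49, adjusted p = 0.372, edgeR). After TMM scaling, no overlap in GM was found for these 2 members and for 72 of all 807 names (8.92%). By library total alone miR-181a-2-3p overlapped, with 23.3 CPM in tKO clone 2 replicate 1 and 22.7 in control population 2 replicate 1. All 7 members had a negative log2 fold change in GM, with a median of -0.80 against 0.11 over the 807 names, of which 40.5% were negative. An unadjusted p under 0.05 was found for 3 members and 65 names.

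In DM3 the same comparison called 7 names (0.867%) and no member. Without tKO clone 1 replicate 1 in DM3 it called 53 of 860 names (6.16%) and no member. With all libraries, 90 names and 1 member had an unadjusted p under 0.05. That member was miR-181c-5p, with 34.2, 11.6, 27.7 and 20.1 in control DM3 and 13.4, 3.27, 14.1 and 6.81 in tKO DM3, overlapping, at -1.51 (SE 0.54, adjusted p = 0.279, edgeR). These levels rest on few reads: the 13.4 is 2 reads, both of 13 to 15 nt with 0 matching a hairpin, and 6 of the 12 reads behind the 3.27 were as short. Among reads that match a hairpin miR-181c-5p was called, at -2.02 (adjusted p = 0.0369, edgeR), as were 22 of 396 names (5.56%). For miR-181a-5p control DM3 held 4390.3, 3038, 5105 and 3645 and the log2 fold change was -0.78 (SE 0.51, adjusted p = 0.532, edgeR). In miR-181b-5p, control DM3 held 787, 967, 1350.2 and 1883, and the log2 fold change was -0.12 (SE 0.49, adjusted p = 0.942, edgeR). The passenger miR-181a-2-3p, with 20.0, 15.4, 25.4 and 16.6 in control DM3 and 0, 12, 10.3 and 7.99 in tKO DM3, was the only member whose groups did not overlap, beside 38 of all 807 names (4.71%). Its log2 fold change was -1.04 (SE 0.55, adjusted p = 0.491, edgeR). The median over the members was -0.67 and 5 of 7 were negative, against a median of 0.09 over all names, of which 45.7% were negative.

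The choice of clone moved these values. Set against the controls of GM, clone 2 alone gave log2 fold changes of -0.20 for miR-181a-5p and -0.10 for miR-181b-5p, and clone 1 alone gave -1.66 and -1.97, none of them called by edgeR. In DM3, clone 2 alone gave -0.01 and 0.51, and clone 1 alone gave -2.26 and -1.23, of which -2.26 for miR-181a-5p passed the threshold (SE 0.45, adjusted p = 0.0367, edgeR), where 3 of 943 names were called (0.318%). The tKO groups also differed from control in miR-9-5p, the one listed neuronal marker with reads, at 98.1 to 156 CPM in control GM and 4.04 to 12.8 in tKO GM. In GM the smooth muscle miRNAs summed to 22733 to 42400 CPM in control and 42715 to 60248 in tKO, and the epithelial list to 3.17 to 5.35 and 10.1 to 16.1, also without overlap. The part of these differences in the family's values was not tested.

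Differentiation of control cells changed many miRNAs but called no member of the family. From GM to DM3, 223 of 807 names were called (27.6%), and 0 of 7 members, whose lowest adjusted p was 0.104 (edgeR). The group ranges did not overlap for 5 members, against 263 of all names (32.6%), while an unadjusted p under 0.05 was found for 1 member and 314 names. This comparison shares the control libraries of GM with the comparison of genotypes in GM.

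Within control cells the log2 fold changes of the members had both signs, and none was called. The level of miR-181a-5p was 2666 to 4050.1 in GM and 3038 to 5105 in DM3, overlapping, with a log2 fold change of DM3 over GM of 0.20 (SE 0.51, adjusted p = 0.812, edgeR). For miR-181b-5p the values of 1900.4 to 2473 in GM lay above those of 787 to 1883 in DM3, at -0.79 (SE 0.49, adjusted p = 0.255, edgeR). The guide miR-181d-5p had 239, 279, 403 and 324 in GM and 34.2, 74.2, 120.2 and 216 in DM3, at -1.47 (SE 0.66, adjusted p = 0.104, edgeR), and its groups did not overlap. After TMM scaling both passengers of the miR-181a hairpins were lower in every DM3 library than in any GM library. By library total alone miR-181a-2-3p overlapped, at 22.7 to 42.9 CPM in GM and 15.7 to 28.2 in DM3. The strand miR-181a-1-3p had 61.8 to 105 in GM and 31.4 to 60.3 in DM3, at -1.02 (SE 0.49, adjusted p = 0.130, edgeR), and miR-181a-2-3p had 28.7 to 45.3 and 15.4 to 25.4, at -0.81 (SE 0.51, adjusted p = 0.258, edgeR). Reads listed as miR-181c-3p went the other way, with 14.7 to 18.7 in GM and 31.4 to 57.8 in DM3, at 1.32 (SE 0.71, adjusted p = 0.175, edgeR). In control DM3 9 of 12, 53 of 60, 17 of 20 and 61 of 89 of these reads were of 13 to 15 nt, and among reads that match a hairpin the log2 fold change was 0.07, so the value is of the listed name and not of the strand. Without the tKO library that stood apart, which enters this fit through the shared spread, 2 members were called: miR-181d-5p at -1.52 (adjusted p = 0.0293, edgeR) and the name miR-181c-3p at 1.26 (adjusted p = 0.0251, edgeR), where 263 of 860 names were called (30.6%). Without control population 2 replicate 2 in DM3, miR-181d-5p was called alone among the members, at -2.11 (adjusted p = 0.0367, edgeR), beside 250 of 866 names (28.9%).

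The same control populations were grown in both media, which the fit above does not use. With a replicate block and a line block 3 members were called lower in DM3 by edgeR: miR-181b-5p at -0.86 (adjusted p = 0.0139), miR-181d-5p at -1.70 (adjusted p = 0.00986) and miR-181a-1-3p at -1.06 (adjusted p = 0.0178). In that fit 274 of 807 names were called (34%). With the replicates of each line summed only 1 member was called, beside 225 of 1214 names (18.5%), so the 3 calls did not all hold there. Signs of RNA quality moved with the medium in control cells without overlap. The share of reads that match a hairpin was 86.4% to 88.5% in GM and 65.9% to 82.7% in DM3, reads under 18 nt were 1.88% to 2.95% and 4.76% to 12.8%, and miR-6240 and miR-6236 together took 0.555% to 1.60% and 4.85% to 17.1%. Among reads that match a hairpin 120 of 396 names (30.3%) and no member were called, with miR-181d-5p at -1.16 (adjusted p = 0.0916) and miR-181a-1-3p at -0.72 (adjusted p = 0.182) by edgeR. The liver miRNA miR-122-5p, at 3.904 to 27.6 CPM in control GM and 0 to 3.24 in control DM3, and the epithelial list, at 3.17 to 5.35 and 0 to 2.34, also did not overlap. The part of these markers was not tested, and that of read quality not otherwise.

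In tKO cells 159 of 807 names were called from GM to DM3 (19.7%), of which 1 was a member. The 4 guides had log2 fold changes of 0.20 for miR-181a-5p, -0.12 for miR-181b-5p, 0.09 for miR-181c-5p and -0.70 for miR-181d-5p, with adjusted p from 0.497 to 0.940 (edgeR), and their ranges overlapped. The 2 passengers of miR-181a were at -0.16 and -0.58. In the test of whether the change with medium differed between the genotypes, no name was called (0%). There 37 names and 0 members had an unadjusted p under 0.05, and the members ran from -0.46 to 1.09 with a lowest adjusted p of 0.937 (edgeR). The 1.09 was that of miR-181c-3p, which was at -0.46 without tKO clone 1 replicate 1 in DM3.

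**Figure D2:**
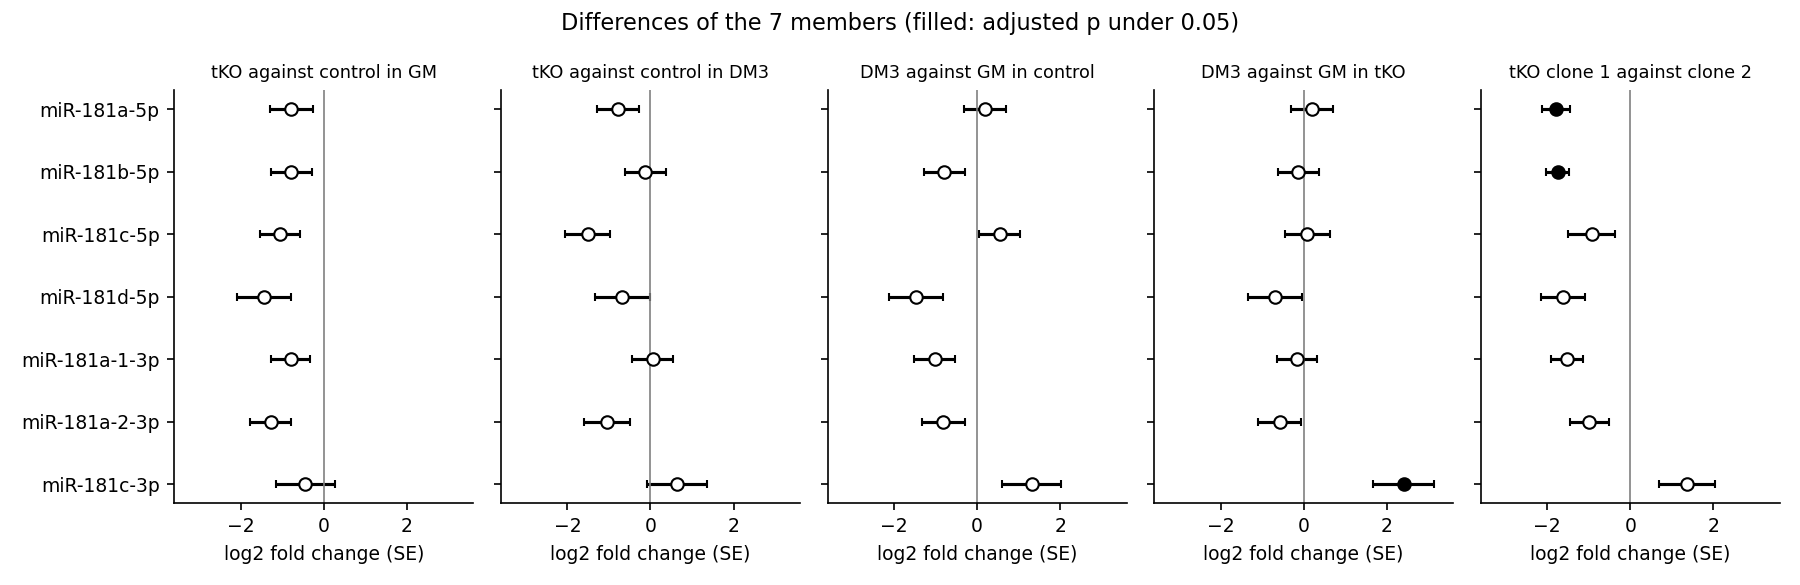
Log2 fold changes of the 7 members in 5 comparisons, with bars of 1 standard error from the edgeR fit, on one linear scale; filled points have an adjusted p under 0.05. Filled points are miR-181c-3p for DM3 against GM in tKO, at 2.41, and miR-181a-5p and miR-181b-5p between the clones, at -1.78 and -1.75.

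The called member was miR-181c-3p, the strand opposite miR-181c-5p. It had 11.4, 17.8, 5.20 and 14.7 in tKO GM and 248, 14.4, 41.0 and 12.2 in tKO DM3, and 1 library, clone 1 replicate 1 in DM3, held the 248. The groups overlapped, and the log2 fold change was 2.41 (SE 0.74, adjusted p = 0.0292, edgeR). With that library left out it was 0.80 (adjusted p = 0.241). The call was also lost without tKO clone 1 replicate 1 in GM (adjusted p = 0.0638). It was lost too without clone 2 replicate 1 in GM (0.0775) and without clone 2 replicate 2 in GM (0.0514). It held in 12 of 16 edgeR fits that left out 1 library. With a replicate block, alone or with a line block, no member was called, beside 168 (20.8%) and 193 (23.9%) of 807 names.

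Many of the reads listed under miR-181c-3p were too short to be the strand, and their share differed between libraries. Of its 699 reads, 66.0% were 13 to 15 nt long and 30.9% matched the hairpin over 16 nt or more, where 92.3% of the reads of miR-181a-5p and 91.7% of those of miR-181a-1-3p did. A single sequence of 14 nt with a mismatch gave 337 reads and one of 13 nt gave 83, and neither was found in a GENCODE M21 transcript. In control GM 3 of 8, 36 of 72, 19 of 28 and 53 of 97 reads matched the hairpin. In the library at 248, 36 of 37 reads were 13 to 15 nt and 0 matched the hairpin. Counting reads that match the hairpin, the log2 fold change was 0.28 (SE 0.49, adjusted p = 0.972, edgeR). Similarly, 178 of the 186.5 reads listed under miR-181b-2-3p were of 13 to 15 nt, and 0 matched its hairpin.

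**Figure D3:**
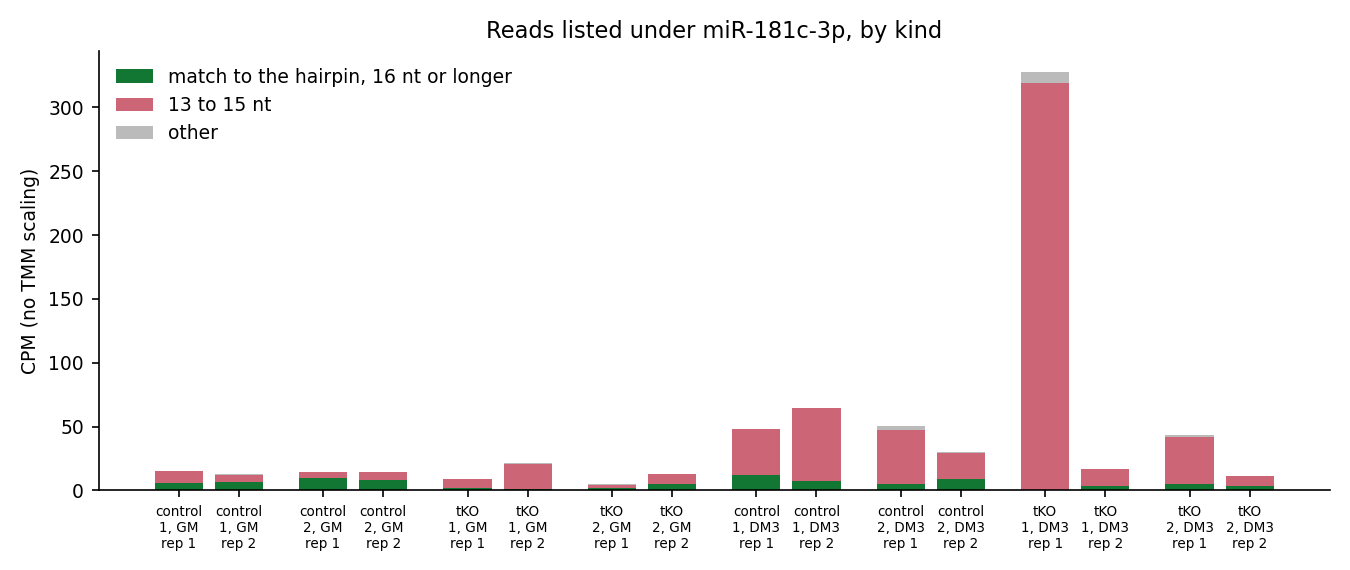
Reads listed under miR-181c-3p in each library, in CPM without TMM scaling on a linear axis from 0, split into reads of 16 nt or more that match the hairpin, reads of 13 to 15 nt, and others. The high bar of tKO clone 1 replicate 1 in DM3 holds 36 short reads and 0 that match the hairpin.

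Shares within a library do not depend on scaling. Of the reads of the 4 guides, miR-181a-5p made up 61.3%, 63.0%, 48.0% and 61.5% in control GM, a mean of 58.5% ± 7.03 (SD, n = 4), and 83.7%, 74.3%, 77.3% and 63.2% in control DM3, a mean of 74.6% ± 8.55 (SD, n = 4). Every DM3 library was above every GM library (two-sided exact permutation test over 70 assignments, p = 0.0286, the smallest these can give), and after adjustment over the 16 tests of the guides' shares p was 0.229. The share of miR-181d-5p was 3.98% to 7.25% in control GM and 0.625% to 3.74% in control DM3, again without overlap (exact permutation p = 0.0286, adjusted p = 0.229). That of miR-181b-5p fell short of separation, at 32.1% to 44.5% against 15.0% to 32.7% (exact permutation p = 0.0571, adjusted p = 0.229). All these share tests take the 4 libraries of a group as separate units, although they come from 2 lines. They also do not use that the same lines were grown in both media. With p no lower than 0.0286, an adjusted p under 0.05 would need most tests of a set at that smallest p.

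**Figure D4:**
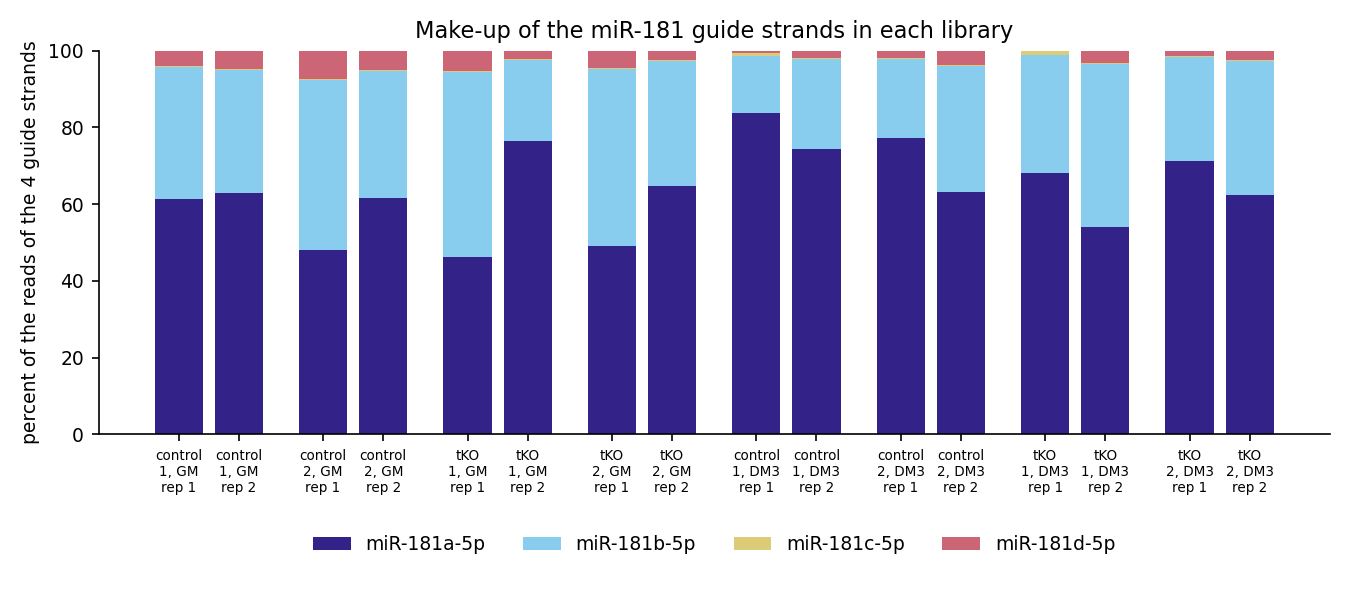
Share of each guide strand among the reads of the 4 guides in each library, in percent, stacked to 100. Control DM3 libraries hold 63.2% to 83.7% of miR-181a-5p and control GM libraries 48.0% to 63.0%.

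In tKO cells the shares of miR-181a-5p were 46.2%, 76.5%, 49.1% and 64.7% in GM and 68.1%, 54.0%, 71.4% and 62.4% in DM3, overlapping. Among the 16 tests, 2 reached the smallest p and none passed adjustment. Clone 1 held the lowest and the highest of the 8 values, so its libraries did not share one make-up of guides.

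Passenger strands were a small part of the reads of the miR-181a hairpins. Together miR-181a-1-3p and miR-181a-2-3p made up 2.84% to 4.77% of the reads of both arms in control GM and 1.16% to 2.07% in control DM3 (exact permutation p = 0.0286, adjusted p = 0.343 over 12 tests of arms). In tKO cells the share was 1.57% to 6.10% in GM and 1.52% to 4.32% in DM3, and no test of arms passed adjustment. Most passenger reads came from the hairpin on chromosome 1: miR-181a-1-3p gave 57.7% to 100% of the reads of both passengers, and the 100% rests on 2 reads. This share describes passengers that were kept and sequenced, not how often each hairpin was transcribed. From the other hairpins, the opposite strands miR-181b-1-3p, miR-181b-2-3p and miR-181d-3p had 110.5, 186.5 and 39 reads in all libraries together.

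The 5p strands were read in several lengths, which are shown for miR-181b-5p because its most read form is not the mature sequence of the reference.
miR-181b-5p, most read form, 23 nt: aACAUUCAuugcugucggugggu
miR-181b-5p, mature form, 24 nt: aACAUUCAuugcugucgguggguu
miR-181b-5p, 25 nt, Mir181b-1: aacauucauugcugucgguggguuG
miR-181b-5p, 25 nt, Mir181b-2: aacauucauugcugucgguggguuU
The form of 23 nt gave 34.3% of the reads of miR-181b-5p and the mature form 17.7%, while for miR-181a-5p and miR-181d-5p the mature form gave 43.2% and 42.0%. In miR-181c-5p the most read form was longer than the mature one, with 29.8% of its reads at 24 nt and 24.1% at the mature 22 nt. Base 25, in capitals in the last forms, is the first that differs between the Mir181b hairpins (G25U). Reads of 25 nt that end as Mir181b-2 numbered 3070 and those that end as Mir181b-1 63, and Mir181b-2 took 95% to 100% of both in each library. A U added after cutting to the mature form of Mir181b-1 would be read as Mir181b-2, so this share is not a measure of the 2 hairpins. The listed names with a copy number cannot be used for that either, since 75.5% of the reads of miR-181b-5p, the form of 23 nt included, stand under the name of Mir181b-1. In miR-181b-5p the 5′ end, which sets the seed, varied little: 98.1% to 100% of its mismatch-free reads in a library began at the mature start.

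Lengths of miR-181a-5p went with the replicate number. Among reads without a mismatch, 17.5% to 22.9% were of 25 nt in the 8 libraries numbered 1 and 9.36% to 13.1% in the 8 numbered 2. The library numbered 1 was higher in 8 of 8 pairs of the same line and medium, and the same held for 24 nt, at 8.75% to 11.6% against 4.31% to 6.45%. The library numbered 2 was also the deeper in 8 of 8 pairs. The pattern was seen in the data and no test was made of it. For miR-181b-5p the share of 25 nt was higher in number 1 in 5 of 8 pairs, and over all names outside the family in 6 of 8, at 0.548% to 1.34% against 0.572% to 0.942%. Since each group holds both numbers, the comparisons of groups are balanced for it.

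**Figure D5:**
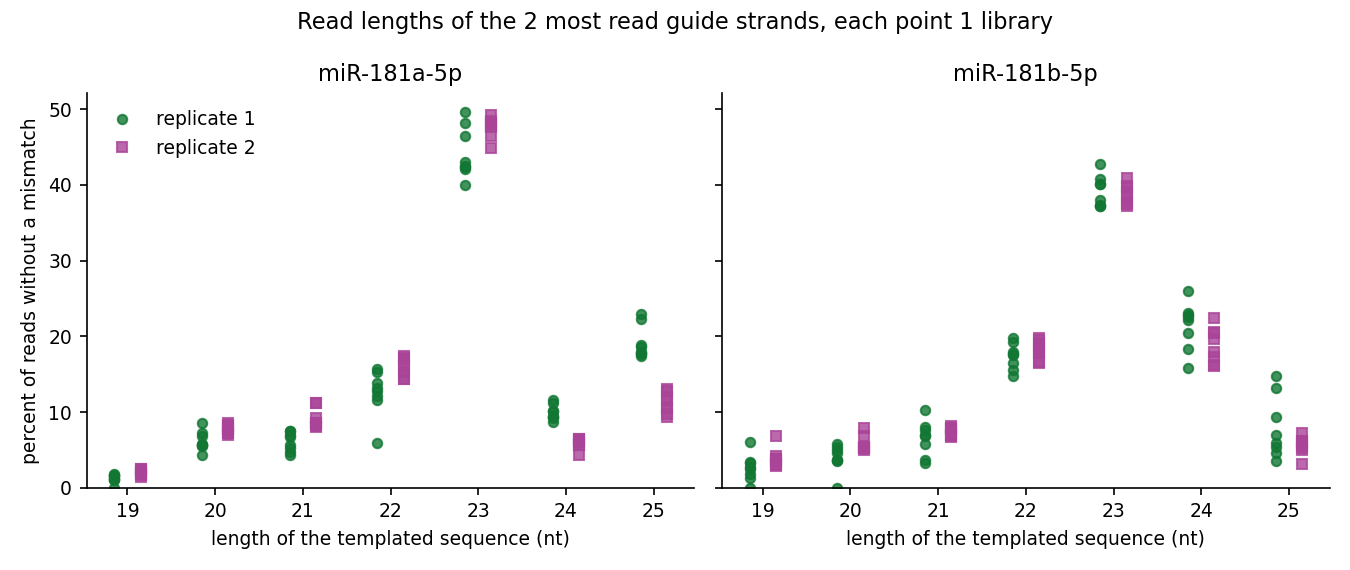
Share of mismatch-free reads of each length from 19 to 25 nt for miR-181a-5p and miR-181b-5p, in percent, each point 1 library (green circles replicate 1, purple squares replicate 2). For miR-181a-5p at 25 nt the replicate 1 libraries lie at 17.5% to 22.9% and the replicate 2 libraries at 9.36% to 13.1%.

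Bases that do not match the hairpin were often found at the 3′ end. In control GM 18.2% to 23.1% of the reads of miR-181a-5p carried such an added base, a mean of 20.7% ± 2.00 (SD, n = 4), and in control DM3 13.5% to 17.3%, a mean of 16.1% ± 1.71 (SD, n = 4). The groups did not overlap (exact permutation p = 0.0286), and the p adjusted over 48 tests of tails was 0.343. A single added A was on 5.31% ± 0.430 of the reads of miR-181a-5p in control GM and on 4.07% ± 0.413 in control DM3, and on 10.2% ± 0.928 and 8.22% ± 0.576 of those of miR-181b-5p (SD, n = 4). These 3 differences and that in 2 added bases on miR-181b-5p between the genotypes in GM reached the smallest p, and no test of tails passed adjustment. For the mature form of miR-181b-5p, tKO DM3 held 23.7%, 20.2%, 19.9% and 18.6% and control DM3 16.1%, 14.5%, 18.3% and 16.3%, without overlap (exact permutation p = 0.0286, adjusted p = 0.411 over 72 tests of lengths). It was 1 of 5 tests of lengths that reached the smallest p, and none passed adjustment.

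Outside the family, the names whose log2 levels followed miR-181a-5p most closely over the 16 libraries, among 238 with a mean of at least 100 CPM, were miR-34b-3p (Pearson r = 0.89), miR-328-3p (0.78), miR-99a-5p (0.77), miR-23b-3p (0.77) and miR-214-3p (0.71). Within the family the same measure was 0.70 for miR-181b-5p, 0.72 for miR-181c-5p, 0.54 for miR-181d-5p, 0.63 for miR-181a-1-3p, 0.68 for miR-181a-2-3p and -0.01 for miR-181c-3p. These values of the members include tKO clone 1 and were not computed without it. The libraries share their depth and quality between names, and over the 12 libraries without tKO clone 1 r was 0.12 for miR-34b-3p, 0.63 for miR-328-3p, 0.000245 for miR-99a-5p, 0.28 for miR-23b-3p and 0.30 for miR-214-3p.

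Other miRNAs described in myoblast differentiation were a list of 24, of which 23 were tested. From GM to DM3, 5 were called higher and 6 lower in control, where 27.6% of all names were called, and 4 higher and 4 lower in tKO, where 19.7% were. The myotube miRNA miR-133a-3p had a log2 fold change of 6.99 in control (SE 0.73, adjusted p = 8.74e-06) and 6.29 in tKO (SE 0.73, adjusted p = 3.18e-05) by edgeR, and miR-221-3p, known to repress the cell cycle inhibitor p27, had -2.06 (SE 0.37) and -1.39 (SE 0.36), called in both. Between tKO and control, 1 of the list was lower in GM and 2 in DM3, all of them the deleted miR-206-3p and miR-1a-3p. Between the clones 0 of the 23 were called by edgeR, beside 1.36% of all names, and miR-221-3p was at -0.93 (SE 0.26, adjusted p = 0.0933).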

How the data were processed

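Small RNA libraries of 16 samples were made with the NEBNext Small RNA kit from 0.5 µg total RNA and selected on a gel for inserts of 15 to 50 nt, per the labels' protocols. The submitters' processing notes name cutadapt 1.15, STAR 2.5.4 and mm10, with no role or order. The authors deposited 1 table per library, which per the file names comes from unitas and lists expected counts, since reads that fit several names are shared among them (0.625% of the rows hold fractions). Its version and the miRBase release are not given in the sources used here. No molecular identifiers are recorded, so counts and intervals cover counting error only.

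Counts were summed per miRNA name, merging hairpin copy numbers, rounded, and tested over 807 names with edgeR 4.0.16 in R 4.3.3 (TMM scaling, filterByExpr with a minimum count of 10, robust quasi-likelihood F test, Benjamini-Hochberg adjustment over all names, threshold 0.05), with all 16 libraries in one fit and 1 coefficient per group. Clones and populations were compared in a fit with a coefficient for each line in each medium, added after the data were seen. Shares were compared by two-sided exact permutation tests over single libraries, without regard to line. Alternatives covered scaling, filters, DESeq2 1.42.0, replicate and line blocks, which reads count, and leaving out each library. The edgeR test of tKO against control in GM was checked on simulated counts, drawn without differences between lines. No other comparison, fit of lines or test of shares was simulated. Named were all 7 members, the other arms of their hairpins, the 5 names most like miR-181a-5p and a list of miRNAs of myoblast differentiation; the members and lists were chosen with earlier results of these data known.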

Additional observations from a re-analysis of the deposited data

Results flagged for a closer look

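In groups of 4 libraries, a library whose gap to the nearest other exceeded Dixon's 95% critical share of the group's range was looked for in 84 groups of values, and 7 were found. Chance gives about 1 in 20 such groups. The library of tKO clone 1 replicate 1 in DM3, which has 112792 reads, stood out in 2 of them: miR-181c-3p was at 248 TMM-scaled CPM against 12.2 to 41.0 in the others, and miR-181c-5p took 1.05% of the guide reads against 0.136% to 0.222%, from 2 reads. Control population 1 replicate 1 in GM had 61.8 CPM of miR-181a-1-3p against 97.8 to 104.9, and 45.3 of miR-181a-2-3p against 28.7 to 31.0. In control population 2 replicate 1 in GM, miR-181a-5p made up 48.0% of the guide reads against 61.3% to 63.0%. The mature form gave 39.1% of the reads of miR-181a-5p in tKO clone 2 replicate 1 in DM3 against 43.9% to 44.6%. A single added A was on 9.08% of the reads of miR-181b-5p in control population 2 replicate 1 in DM3 against 7.87% to 7.98%.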

How the results depend on the processing

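Counts of members called by edgeR moved as follows, with the share of all names called in brackets. For tKO against control in GM, 0 became 1 with a replicate block and a line block (3.35%; miR-181b-5p, -1.07, adjusted p = 0.0218). In DM3, 0 became 1 with the libraries numbered 2 alone (5.98%; miR-181c-3p, -1.85), with reads that match a hairpin (5.56%; miR-181c-5p, -2.02) and without tKO clone 2 (0.318%; miR-181a-5p, -2.26). For DM3 against GM in control, 0 became 3 with the replicate and line blocks (34%), with only the groups compared (38.3%) and without tKO clone 1 (34.1%), and 1 with summed replicates (18.5%), with number 2 alone (15.9%) and by DESeq2's Wald test (30.9%; miR-181d-5p, adjusted p = 0.0496), and leaving out single libraries gave 0 to 2. For DM3 against GM in tKO, 1 became 0 with the replicate block, with the replicate and line blocks, with summed replicates, only the groups compared, reads without a mismatch, the exact mature sequence, 18 to 25 nt, number 2 alone, reads that match a hairpin and without either clone (4.45% to 30.5%), and leaving out single libraries gave 0 to 1. Between the clones 2 became 1 with total counts (0.991%) and 3 with the replicate block (2.48%), with reads that match a hairpin (3.54%) and with reads without a mismatch (2.48%), and leaving out single libraries gave 2 to 6.

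The log2 fold changes that changed sign included these. For tKO against control in DM3, miR-181b-5p was at 0.01 with no filter, 0.21 with unmerged names, 0.05 with number 1 alone, 0.51 without clone 1 and -0.39 to 0.26 with single libraries left out. There miR-181a-1-3p was at -0.12 with replicate and line blocks, -0.14 with summed replicates, -0.18 with exact sequences, -0.11 with 18 to 25 nt, -0.20 with number 2 alone, -0.01 with hairpin reads, -0.99 without clone 2 and -0.29 to 0.37 with libraries left out. The values of miR-181c-3p were -1.23 with summed replicates and with hairpin reads, -1.19 without mismatches, -1.33 with 18 to 25 nt, -1.85 with number 2 alone, -0.73 without clone 1 and -0.94 to 1.09 with libraries left out, and miR-181d-5p ran from -1.11 to 0.00. For DM3 against GM in control, miR-181a-5p was at -0.06 with no filter, -0.04 with summed replicates and -0.20 with number 2 alone, and miR-181c-3p at -0.03 without mismatches. For DM3 against GM in tKO, miR-181a-5p was at -0.14 with summed replicates, -0.36 with number 2 alone, -0.43 without clone 2 and -0.34 to 0.75 with libraries left out, and miR-181b-5p at 0.12 with total counts, 0.31 with exact sequences, 0.14 unmerged, 0.09 with number 2 alone and -0.46 to 0.19. There miR-181c-5p was at -0.06 with both blocks, -0.51 with summed replicates, -0.03 without mismatches, -0.85 with number 2 alone, -0.12 with hairpin reads, -0.15 without clone 2 and -0.35 to 0.61, miR-181a-1-3p at 0.09 with total counts and -0.51 to 0.07, miR-181a-2-3p at 0.81 without clone 2 and -0.85 to 0.00, and miR-181c-3p at -0.28 with number 2 alone. Between the clones miR-181c-3p was at -0.90 with hairpin reads, -0.99 without mismatches and -0.17 to 1.86 with libraries left out. Without tKO clone 1 replicate 1 in DM3, miR-181c-3p went from 1.09 to -0.46 in the test of genotype by medium. It went from 1.34 to -0.16 for the clone against the population difference, and from 0.02 to -0.004 between the populations. Apart from fewer reads or libraries entering, the cause was not tested.

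The replicate numbers were not taken to pair the libraries, since the labels do not say that they mark a batch. A replicate block was run as an alternative. Depth and the lengths of miR-181a-5p did go with the number. Deviations from group means, for libraries with the same number in different groups, correlated at a mean of 0.100 over 48 pairs, from -0.456 to 0.634. Those with different numbers gave -0.0944 over 48, which mirrors the first mean because deviations cancel within a group. With the replicate block miR-181a-1-3p was also called between the clones (-1.51, adjusted p = 0.0412), and the count of names called there went from 11 to 20. Over the other settings names called ran from 2 to 27 for tKO against control in GM, 1 to 74 in DM3, 85 to 291 for DM3 against GM in control and 42 to 210 in tKO, and between the clones 8 to 20, or 5 to 90 with libraries left out. Without tKO clone 1 replicate 1 in DM3, names called between tKO and control were 16 in GM and 53 in DM3. Scaling by total counts moved the median of all names by 0.13 for tKO against control in GM, 0.37 for DM3 against GM in control, 0.23 in tKO and 0.25 between the clones. No family of share tests passed adjustment under the alternatives run. Permuting within replicate numbers, or over the means of lines, leaves too few assignments for p to fall under 0.05, so those alternatives could not have passed. The 2 libraries per line and medium, and 2 to 99 reads of miR-181c-5p per library, limit what could be detected.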
